A study of Mus musculus with 8 samples.

Results

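Each paired-end tag (PET) in this mouse liver RNA polymerase II (Pol II) ChIA-PET data carries 1 of 2 linker codes. The PETs were divided by that code within each of 3 experiments, which gave 6 subsets, 3 a side. Read 1 has the code ATGT or the code TAAG, and in all 2753554 PETs the code of read 2 was the reverse complement of that of read 1, ACAT or CTTA. No PET joined the 2 codes, and all PETs of the table entered 1 of the 6 subsets. No source used here says what the code stands for, so the subsets are named by their letters and are not called time points or libraries.

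The livers came from wild type C57BL/6 mice aged 3 to 6 months, kept in a cycle with 12 h of light and fed freely. The labels describe 8 libraries, 4 from livers taken at ZT06, in the day, and 4 from ZT18, at night (ZT counts hours from lights on). Experiment 1 (JM08) and experiment 3 (JM12) were dual crosslinked with 1.5 mM EGS and 1% formaldehyde, and experiment 2 (JM11) was crosslinked with 1% formaldehyde alone. Chromatin of 3 to 7 livers was combined for each precipitation with the antibody 8WG16, so a library is a pool of animals and of all liver cell types. Crosslinking and experiment cannot be told apart for the single experiment with formaldehyde alone.

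ChIA-PET recovers DNA bound by a chosen protein, ligates short biotinylated linkers to the free DNA ends, and then ligates ends held in one complex, so that each sequenced molecule reports a pair of genomic places. In many versions of the method, portions of 1 precipitate receive linkers with different codes, and molecules with unlike codes then mark ligation between complexes; in other versions the code marks a sample. Pol II is densest at transcription start sites, where it pauses, and lies more thinly along transcribed genes. In liver, transcription of the circadian genes used here as checks follows a daily cycle driven by CLOCK and BMAL1 (encoded by Arntl), which bind the E-box motif.

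Promoter windows of 3 genes are printed here because the results below come back to them: a check gene with an E-box, the gene of serum albumin, which held the most ends of the hepatocyte list, and a place where ends of 1 linker pile up. They are RefSeq sequences on GRCm38.p6, 250 bases before to 50 after the start site, on the plus strand. Capitals mark the E-box CACGTG in Per1, CCAAT or its reverse complement ATTGG in Alb, and 10 bases on either side of the densest position in Lclat1.
Per1, chr11:69098699-69098998: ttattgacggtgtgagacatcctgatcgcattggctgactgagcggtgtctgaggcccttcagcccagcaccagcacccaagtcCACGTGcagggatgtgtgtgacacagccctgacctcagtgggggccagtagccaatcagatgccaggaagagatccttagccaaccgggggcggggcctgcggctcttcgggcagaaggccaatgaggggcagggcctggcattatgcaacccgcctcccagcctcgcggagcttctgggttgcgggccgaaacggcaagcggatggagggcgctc
Alb, chr5:90460620-90460919: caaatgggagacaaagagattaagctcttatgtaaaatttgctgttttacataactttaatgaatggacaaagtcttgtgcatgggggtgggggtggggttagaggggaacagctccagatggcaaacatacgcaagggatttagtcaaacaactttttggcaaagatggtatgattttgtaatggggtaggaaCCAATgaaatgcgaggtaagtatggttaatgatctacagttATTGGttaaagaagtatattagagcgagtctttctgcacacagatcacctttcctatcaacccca
Lclat1, chr17:73107735-73108034: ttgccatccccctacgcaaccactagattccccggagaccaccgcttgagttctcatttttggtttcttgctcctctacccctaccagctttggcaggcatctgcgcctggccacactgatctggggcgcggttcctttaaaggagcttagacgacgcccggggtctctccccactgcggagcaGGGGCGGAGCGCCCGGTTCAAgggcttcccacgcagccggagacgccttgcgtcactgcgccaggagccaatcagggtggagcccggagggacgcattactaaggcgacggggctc
Of 32851 promoter windows of this length, 7.15% hold CACGTG, which reads the same on both strands, and 37.4% hold CCAAT on either strand. Among the check genes, CACGTG was found in 1 of the 2 windows of Per1 and in no window of Dbp, Nr1d1, Arntl or Npas2, which says only that these letters are not in those windows.

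The linkers were used unequally. Experiment 1 held 194274 PETs with ATGT and 280204 with TAAG, experiment 2 held 329517 and 1109349, and experiment 3 held 399773 and 440437. TAAG was therefore the more frequent code in every experiment, by 1.44 times, 3.37 times and 1.10 times. Levels below are in CPM, the ends of a gene or region per 1000000 nuclear ends of its subset, and a subset held from 388544 to 2218674 nuclear ends. Intervals are exact 95% binomial intervals and cover counting error only, without allowing for the joint counting of the 2 ends of a PET.

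In experiments 1 and 2 the TAAG subset held a smaller share of short-range PETs and of ends near genes than the ATGT subset, and in experiment 3 the subsets were nearly alike. PETs joining places at most 8 kb apart made up 24.9% (24.66% to 25.05%) of nuclear PETs with ATGT and 20.9% (20.8% to 21.1%) with TAAG in experiment 1. In experiment 2 they made up 10.9% (10.82% to 11.03%) and 4.84% (4.80% to 4.88%). In experiment 3 they made up 14.7% (14.5% to 14.8%) and 14.9% (14.75% to 14.96%). The difference of TAAG from ATGT averaged -3.26 percentage points with an SD of 3.20 (n = 3), and the exact two-sided permutation of codes within experiments gave p = 0.5. With 3 pairs there are 8 arrangements and the smallest p this test can give is 0.25, so no comparison of 3 pairs can pass a threshold of 0.05. PETs between chromosomes took up the difference, with 70.9% against 74.6% in experiment 1, 84.2% against 90.005% in experiment 2 and 80.3% against 80.1% in experiment 3.

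**Figure D1:**
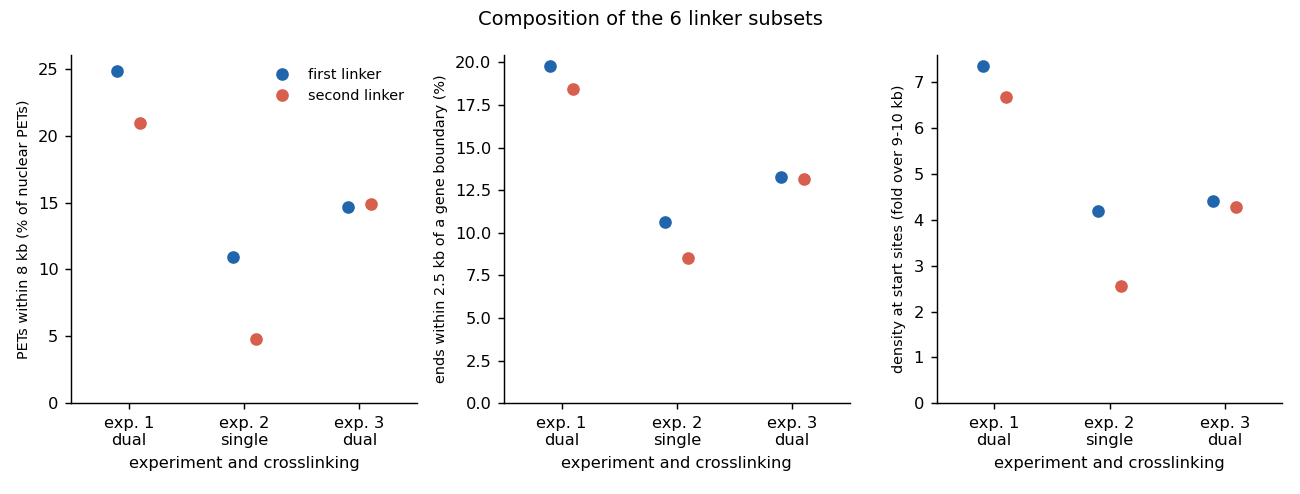
Composition of the 6 subsets: PETs within 8 kb (% of nuclear PETs), ends within 2.5 kb of a protein-coding gene boundary (%), and density of ends within 0.5 kb of start sites over that 9 to 10 kb away, for each experiment, with the first linker (ATGT) in blue and the second (TAAG) in red. No error bars are drawn. The points of a pair lie apart in experiments 1 and 2 and nearly coincide in experiment 3.

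Contacts of intermediate length were few in every subset. PETs 8 to 100 kb apart, the range in which promoters meet nearby regulatory DNA, made up 0.169% with ATGT and 0.138% with TAAG in experiment 1, 0.0428% and 0.0231% in experiment 2, and 0.234% in both subsets of experiment 3. The intervals of the linkers lay apart in experiment 2 (0.0360% to 0.0505% and 0.0203% to 0.0261%), met in experiment 1 (0.151% to 0.188% and 0.124% to 0.152%) and nearly coincided in experiment 3. For PETs 100 kb to 2 Mb apart, the intervals of the linkers overlapped in all 3 experiments, with shares of 0.163% to 0.269%. Over all 3 pairs the exact permutation p was 0.25 for the first range and 0.75 for the second.

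Ends near genes followed the same order. Within 2.5 kb of a boundary of a protein-coding gene lay 19.8% of the ATGT ends and 18.4% of the TAAG ends of experiment 1, 10.6% and 8.52% in experiment 2, and 13.3% and 13.2% in experiment 3. The mean difference was -1.18 percentage points with an SD of 1.02 (n = 3, exact permutation p = 0.25). TAAG was lower in 3 of 3 experiments, although in experiment 3 the difference was -0.101 points. The intervals there, 13.2% to 13.4% for ATGT and 13.1% to 13.3% for TAAG, overlapped.

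Ends were densest at start sites in all 6 subsets, as is known of Pol II, and over all PETs the peak was lower with TAAG, most of all in experiment 2. Over 21238 annotated start sites of 17469 genes, the density within 0.5 kb was 7.36 times that at 9 to 10 kb with ATGT and 6.67 times with TAAG in experiment 1. It was 4.19 and 2.55 times in experiment 2, and 4.40 and 4.28 times in experiment 3. Among PETs within 8 kb of experiment 3 the order was reversed, at 6.47 times with ATGT and 6.65 with TAAG. Between chromosomes it was 3.90 and 3.77 times there. The difference in experiment 2 was present among PETs within 8 kb, at 11.6 against 10.0 times, and among PETs between chromosomes, at 2.98 against 2.03 times. The lower share of short PETs in that TAAG subset moved together with a lower peak within each class of PET.

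**Figure D2:**
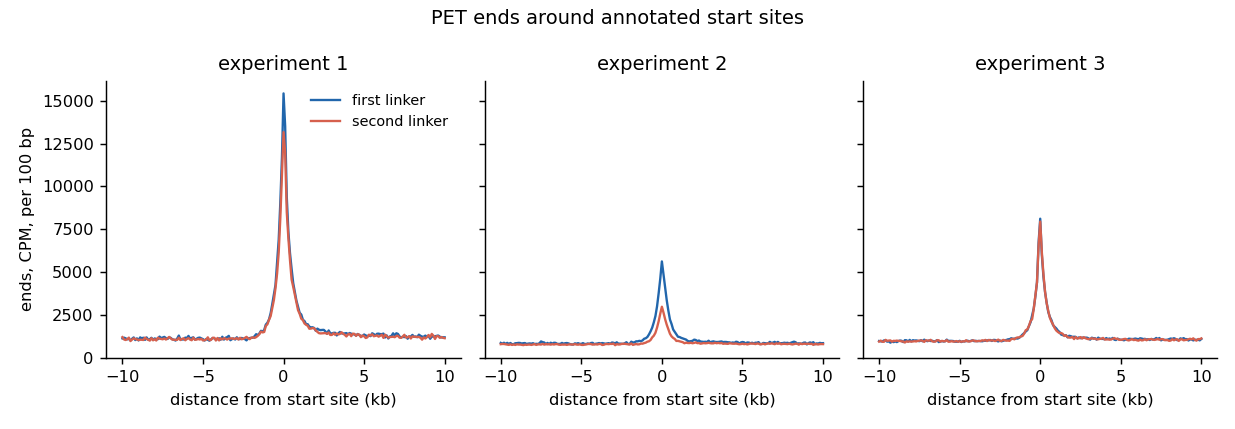
CPM in 100 bp steps against the distance from the start site (kb, in the direction of transcription), summed over 21238 start sites, with the first linker (ATGT) in blue and the second (TAAG) in red, 1 panel an experiment. The blue peak stands clearly above the red in experiment 2 (4.19 against 2.55 times the density at 9 to 10 kb) and lies on it in experiment 3.

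Across classes of genes the ratio of the linkers followed how densely a gene is covered. The protein-coding genes were ranked by their ends per kb in the 2 other experiments and divided into quintiles, so that the experiment compared took no part in the ranking. In the densest quintile, TAAG had 0.931 (0.919 to 0.943) times the CPM of ATGT in experiment 1, 0.710 (0.700 to 0.720) times in experiment 2, and 0.991 (0.978 to 1.00) times in experiment 3. In the sparsest quintile the ratios were 1.05 (1.02 to 1.08), 1.04 (1.02 to 1.06) and 1.00 (0.975 to 1.03). Genes that bear much Pol II were thus lower in TAAG and genes that bear little were higher, in experiments 1 and 2 and beyond counting error over all PETs, while in experiment 3 both intervals covered 1. Within classes of PET the ratios of the densest quintile lay nearer to 1. PETs within 8 kb gave 0.997 (0.977 to 1.02) for experiment 1 and 0.873 (0.848 to 0.899) for experiment 2, against 0.956 (0.939 to 0.973) and 0.781 (0.768 to 0.794) for PETs between chromosomes. In the sparsest quintile the intervals covered 1 in both classes in experiment 1, and in experiment 2 for PETs within 8 kb and, at 1.02 (0.9999 to 1.04), between chromosomes. These ratios are descriptions of the pooled ends, with no test over experiments.

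Over all PETs the ratio also rose with gene length in experiments 1 and 2. In experiment 2 the ratio of TAAG to ATGT was 0.673 (0.648 to 0.699) in the shortest quintile, of median length 1.54 kb, and 1.01 (1.01 to 1.02) in the longest, of median length 109 kb. The ratios of experiment 1 were 0.936 and 1.01, and those of experiment 3 were 1.01 and 1.00. Within classes of PET the shortest quintile of experiment 1 was at 0.982 (0.930 to 1.04) within 8 kb and 0.994 (0.945 to 1.05) between chromosomes, which both cover 1. That of experiment 2 was at 0.869 (0.803 to 0.942) and 0.737 (0.705 to 0.770). Whole chromosomes differed far less, with ratios from 0.967 to 1.04 for the autosomes and X in experiment 2, the lowest on chromosome 19 and the highest on X.

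**Figure D3:**
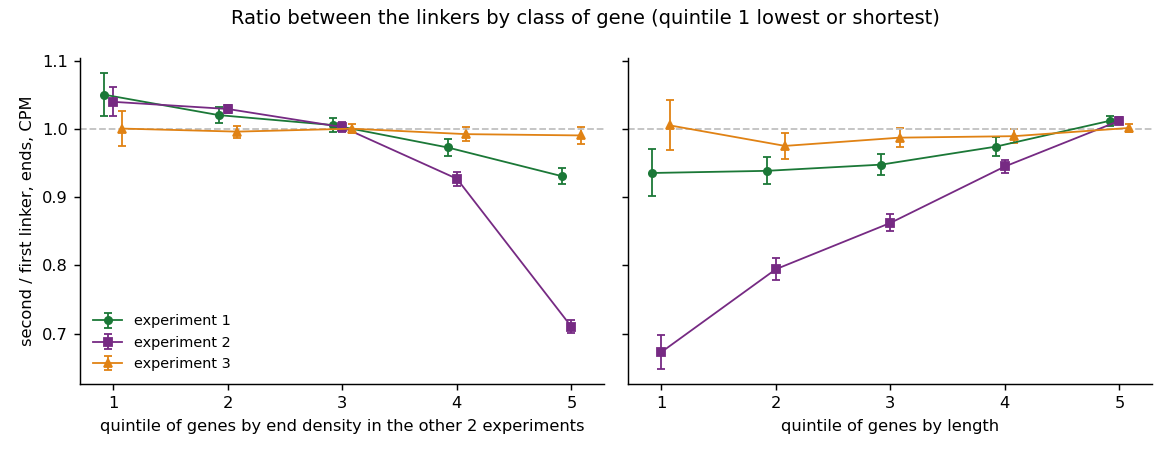
Ratio of the second linker (TAAG) to the first (ATGT) in CPM, summed over quintiles of protein-coding genes ranked by density of ends in the 2 other experiments (left) or by length (right), with exact 95% intervals for counting error, 1 line an experiment. Experiment 2 falls to 0.710 in the densest quintile, and experiment 3 stays near 1.

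No protein-coding gene differed between the linkers in the fit over all genes. The limma voom test with experiment as block, over 13783 genes with a mean of at least 5 ends a subset, called 0 genes at an adjusted p under 0.05 (0% of those tested), and the smallest adjusted p was 0.307. The limma trend fit also called 0. At an unadjusted p under 0.05 there were 167 genes higher in TAAG (1.21%) and 571 lower (4.14%), together 5.35%. The split depends on the scaling: quantile normalization gave 264 higher and 444 lower, and limma trend with a pseudocount of 1 CPM gave 276 and 396. Without experiment 3, limma voom called 3 genes, all lower in TAAG: Errfi1, a feedback inhibitor of EGF receptor signalling, Ahsg and Ttc39c. Without experiment 1 or without experiment 2 it called 0. The fit without experiment 3 had 13699 degrees of freedom, so its p-values rest on spread pooled over all genes. In the fit of all 3 experiments, the median difference over all genes was -0.05 on the log2 scale.

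The genes with the smallest p and the same direction in all 3 experiments are given as values, since none passed. The 5 lower in TAAG were Rprd1b, Dennd6b, Tfg, Gmcl1 and Dennd4b, with log2 differences from -1.70 to -1.31 and adjusted p from limma of 0.307 to 0.370. Rprd1b, which encodes a protein that binds the Pol II tail, had 30.9, 27.3 and 35.1 CPM with ATGT in experiments 1 to 3 and 12.5, 12.6 and 9.11 with TAAG. All 3 ATGT values lay above all 3 TAAG values, on counts of 7 to 28 ends. Tfg, which acts in export from the endoplasmic reticulum, had 64.3, 21.2 and 16.3 CPM with ATGT and 12.5, 11.3 and 7.97 with TAAG. Here too the lowest ATGT value was above the highest TAAG value. A choice by smallest p favours genes with such separation, so it adds no support.

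Higher in TAAG were Pcdh15, Opcml, Arl8b, Tecrl and D5Ertd579e, with adjusted p from limma of 0.307 to 0.553. Pcdh15, a cadherin gene of sensory hair cells, and Opcml, a neuronal adhesion gene, are long genes (1554 kb and 1135 kb) and are not known for expression in hepatocytes. Pcdh15 had 492, 674 and 463 CPM with ATGT and 550, 710 and 622 with TAAG, a log2 difference of 0.22 ± 0.05 (SE, n = 3). The ranges of the linkers overlapped, and the difference is seen only within experiments. Its density of 0.298 to 0.457 CPM per kb lay below that of all protein-coding genes together in 5 of 6 subsets, the exception being TAAG of experiment 2 with 0.457 against 0.433.

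The 5 circadian check genes gave no difference between the linkers that passed the test. Dbp (chr7:45705100-45710203), which encodes a PAR bZIP activator, held 44 and 51 ends with ATGT and TAAG in experiment 1, 10 and 24 in experiment 2, and 17 and 11 in experiment 3. In CPM these were 113 and 91.0, then 15.2 and 10.8, then 21.3 and 12.5. TAAG was the lower code in 3 of 3 experiments, with ratios of 0.804 (0.526 to 1.23), 0.713 (0.329 to 1.67) and 0.587 (0.249 to 1.33), and each interval covered 1. Its log2 difference was -0.44 ± 0.26 (SE, n = 3, adjusted p = 0.943 from limma), with a 95% interval from 0.517 to 1.05 times, so that a level up to 1.93 times higher with ATGT lies within it.

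The repressor genes moved in no common direction. Nr1d1 (chr11:98767932-98775377), which encodes REV-ERB alpha, had TAAG to ATGT ratios of 0.963 (0.505 to 1.87), 0.545 (0.185 to 1.79) and 1.45 (0.620 to 3.58), on 18 and 25, 6 and 11, and 10 and 16 ends. Per1 (chr11:69095108-69109965), which encodes a period repressor, had ratios of 3.00 (0.826 to 16.4), 0.424 (0.204 to 0.908) and 0.990 (0.400 to 2.48), on 3 and 13, 14 and 20, and 11 and 12 ends. In Per1 the interval of experiment 2 alone excluded 1, and experiment 1 lay on the other side of 1. This depended on the span. With 2.5 kb on either side, the ratios of Per1 were 0.945 (0.406 to 2.28), 0.462 (0.247 to 0.887) and 1.15 (0.554 to 2.43). Those of Nr1d1 were then 0.971 (0.565 to 1.69), 0.351 (0.145 to 0.865) and 1.61 (0.780 to 3.45). The fitted log2 differences were -0.01 ± 0.36 for Nr1d1 and -0.29 ± 0.40 for Per1 (SE, n = 3), with adjusted p from limma of 0.998 and 0.995. In the Per1 window printed above lay 1 end with ATGT and 4 with TAAG over all experiments, too few to compare.

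Of the activator genes, Arntl was higher in TAAG in 3 of 3 experiments and Npas2 in 1 of 3. Arntl (chr7:113178471-113314126) held 64.3 and 89.2 CPM with ATGT and TAAG in experiment 1, 56.1 and 58.1 in experiment 2, and 81.5 and 104 in experiment 3. The ratios were 1.39 (0.842 to 2.34), 1.04 (0.714 to 1.54) and 1.27 (0.914 to 1.78), and each interval covered 1. Npas2 (chr1:39193702-39363240), a relative of CLOCK, had ratios of 0.717 (0.416 to 1.24), 1.15 (0.820 to 1.64) and 0.958 (0.685 to 1.34). The log2 differences were 0.26 ± 0.18 for Arntl and -0.03 ± 0.17 for Npas2 (SE, n = 3, adjusted p = 0.962 and 0.997 from limma), with intervals of 0.942 to 1.53 times and 0.777 to 1.24 times.

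**Figure D4:**
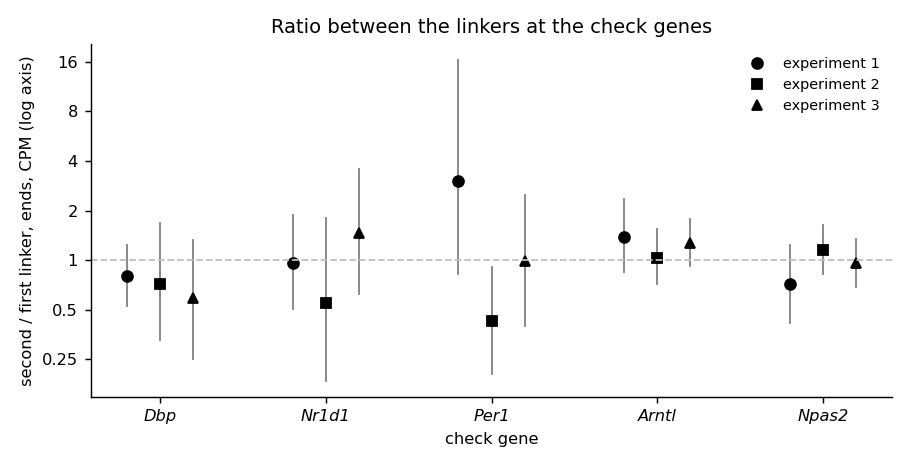
Ratio of the second linker (TAAG) to the first (ATGT) in CPM (log axis) at the 5 check genes, with exact 95% intervals for counting error; the symbol gives the experiment. Of the 15 intervals, only that of Per1 in experiment 2 (0.204 to 0.908) excludes 1.

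Beyond the 5 checks, the wider circadian lists held no called gene either. Peak times of the genes in the day and night lists were not checked here. Of the 12 genes in the day list, 11 were tested, 0 were called and 10 had a negative difference. Their median was -0.29 on the log2 scale against -0.05 over all genes tested, of which 56.9% were negative. Without experiment 2, 6 of 11 were negative with a median of -0.19. The median was -0.11 by limma trend with a pseudocount of 1 CPM and -0.10 over the 7 genes tested with PETs within 8 kb only. Tef, a relative of Dbp, was the only one at an unadjusted p under 0.05 (log2 difference -0.75 ± 0.25, SE, n = 3, adjusted p = 0.559 from limma). The summed ratio of TAAG to ATGT was 0.891 (0.742 to 1.07), 0.681 (0.561 to 0.830) and 0.893 (0.746 to 1.07) in experiments 1 to 3. The 6 genes in the night list were all tested, 0 were called and 3 were negative. Their median was 0.10 (-0.00 without experiment 1 and 0.01 without experiment 2). Their summed ratios were 1.06 (0.829 to 1.36), 1.11 (0.916 to 1.36) and 1.04 (0.866 to 1.24). The day list was the denser per length, at 0.501 to 1.77 CPM per kb against 0.395 to 0.616 for the night list. The quintiles of density in which the list genes fall are not given here, and the part of density in the lists' values was not tested.

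Genes of the hepatocyte, the main cell of the liver, were the densest list and were lower in TAAG in experiments 1 and 2. The 16 abundant hepatocyte genes, which encode plasma proteins and metabolic enzymes, held 15.8 and 14.1 CPM per kb with ATGT and TAAG in experiment 1, 2.87 and 1.54 in experiment 2, and 3.40 and 3.45 in experiment 3. Their summed ratios were 0.889 (0.834 to 0.947), 0.538 (0.483 to 0.599) and 1.02 (0.920 to 1.12). All 16 had a negative difference in the fit, beside 56.9% of all genes tested. Of the 16, 4 were lower at an unadjusted p under 0.05 by limma, beside 4.14% of all genes tested. In the list 0 were called, with a median of -0.26 against -0.05 over all genes. Without experiment 2 the median was -0.06 and 12 of 16 were negative, and with PETs within 8 kb only it was -0.07 with 12 of 15 negative. The peak at start sites, the share of short PETs and the ratio of the densest quintile moved in the same order as this list over the experiments. Genes of the list were part of the quintiles and their PETs part of the shares, so these measures are not independent of it. Their part in it was not tested.

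The 4 genes of the list with the most ends differed in size. Alb, the gene of serum albumin, held 294 and 354 ends with ATGT and TAAG in experiment 1, 64 and 120 in experiment 2, and 84 and 88 in experiment 3, or 48.1 and 40.2, 6.17 and 3.44, and 6.70 and 6.37 CPM per kb. Its log2 difference was -0.31 ± 0.09 (SE, n = 3, adjusted p = 0.511 from limma). Inside the printed 300 bases of the Alb promoter lay 16 ends with ATGT and 27 with TAAG. Cps1, the gene of the first enzyme of the urea cycle, held 173 and 250, 50 and 118, and 136 and 154 ends, with a log2 difference of -0.06 ± 0.11 (SE, adjusted p = 0.995 from limma). Tat, the gene of tyrosine aminotransferase, held 178 and 256, 88 and 152, and 79 and 88 ends, with a log2 difference of -0.24 ± 0.11 (SE, adjusted p = 0.917 from limma). Apob, the gene of the main protein of very low density lipoprotein, held 163 and 216, 40 and 77, and 84 and 104 ends, with a log2 difference of -0.14 ± 0.12 (SE, adjusted p = 0.983 from limma). In experiment 1, Cps1 (4.09 CPM per kb with ATGT and 4.10 with TAAG) and Tat (33.4 and 33.3) were at nearly the same level with both codes, while in experiment 2 all 4 genes were lower with TAAG. None passed the test. Ahsg, the gene of the plasma protein fetuin-A, was chosen after its values were seen: it held 134 and 117, 34 and 54, and 28 and 34 ends, with a log2 difference of -0.66 ± 0.16 (SE, adjusted p = 0.307 from limma). It was called without experiment 3 (adjusted p = 0.0197 from limma), in a fit whose variance was pooled over all genes.

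The other liver lists also had 0 called genes. Of 10 lipogenesis genes 7 were negative (median -0.08), of 8 tested fasting response genes 6 (median -0.15), and of 10 bile acid and cholesterol genes 8 (median -0.17), beside 56.9% of all genes tested. Without experiment 2 the counts were 5 of 10, 4 of 7 and 5 of 10, with medians of -0.03, -0.01 and -0.00. With PETs within 8 kb only, 0 of 6 fasting genes were negative (median 0.53) and 2 of 6 bile acid and cholesterol genes (median 0.04). Fasn, the fatty acid synthase gene, held 74 and 111, 44 and 60, and 73 and 78 ends with ATGT and TAAG in experiments 1 to 3. Acly, the gene of ATP citrate lyase and chosen after its values were seen, had a positive difference with 16 and 53, 16 and 59, and 48 and 66 ends and a log2 difference of 0.49 ± 0.22 (SE, n = 3, adjusted p = 0.914 from limma). Pck1, the gluconeogenic gene, held 137 and 226, 74 and 144, and 23 and 23 ends. In experiment 2 the summed ratios of these 3 lists were 0.705 (0.614 to 0.812), 0.858 (0.762 to 0.968) and 0.588 (0.479 to 0.723), all below 1 beyond counting error, and in experiment 3 all 3 intervals covered 1.

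The stress-response lists also had 0 called genes. All 8 tested heat shock genes, of 10 in the list, were negative, with a median of -0.52, and 10 of 12 immediate early genes were negative, with a median of -0.29. Of all genes tested, 56.9% were negative, with a median of -0.05. The lists held 1.00 to 5.31 and 1.04 to 5.58 CPM per kb, against 0.433 to 0.479 for all protein-coding genes. The part of density in these values was not tested. Without experiment 2 all 8 heat shock genes were negative with a median of -0.29. The immediate early median was -0.07 without experiment 1 and -0.09 without experiment 2, with 7 negative in each. Hsp90ab1, a cytosolic chaperone gene, held 25 and 29, 15 and 21, and 17 and 15 ends, with a log2 difference of -0.59 ± 0.29 (SE, n = 3, adjusted p = 0.922 from limma). The summed heat shock ratios were 0.683 (0.533 to 0.875), 0.528 (0.399 to 0.702) and 0.985 (0.737 to 1.32) in experiments 1 to 3. The immediate early ratios were 0.856 (0.661 to 1.11), 0.584 (0.425 to 0.811) and 1.00 (0.763 to 1.32). As with the hepatocyte list, the ratios were lowest in experiment 2 and near 1 in experiment 3.

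The olfactory receptor genes and the markers of other liver cells did not share the low ratios of experiment 2. The 1110 olfactory receptor genes, silent in liver, held 0.256 to 0.330 CPM per kb over the 6 subsets, and their summed ratios were 1.13 (0.951 to 1.35), 1.04 (0.935 to 1.16) and 1.05 (0.923 to 1.20). All protein-coding genes together held 0.433 to 0.479. Markers of other liver cells lay on both sides of this. The 6 macrophage and Kupffer genes held 0.314 to 0.356, below it in every subset, and the 5 biliary genes 0.483 to 0.824, above it in every subset. The 6 endothelial genes held 0.393 to 0.565 and the 6 stellate genes 0.313 to 0.488. The abundant hepatocyte genes held at least 1.54 in every subset, so all 6 subsets carried the label's tissue. None of the tested markers of other cells was called. The summed stellate ratio in experiment 1 was 1.47 (1.10 to 1.98) (Reln held 57 and 116 of these ends), and it was 1.00 and 0.916 in the other experiments.

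In 10 kb bins, 3 of 42871 tested bins differed between the linkers by the limma voom test (0.00700%), and all 3 were higher in ATGT in every experiment. The bin chrX:76990000-76999999 held 26, 50 and 62 ends with ATGT in experiments 1 to 3 and 0, 11 and 3 with TAAG, a log2 difference of -4.40 ± 0.52 (SE, n = 3, adjusted p = 1.22e-07 from limma). The bin chr17:87960000-87969999 held 18, 41 and 46 ends with ATGT and 2, 8 and 1 with TAAG, a log2 difference of -4.13 ± 0.53 (adjusted p = 1.02e-06 from limma). The bin chr11:79330000-79339999, which holds the first bases of Nf1, held 30, 44 and 75 ends with ATGT and 10, 12 and 10 with TAAG, a log2 difference of -2.91 ± 0.38 (adjusted p = 1.46e-06 from limma). In CPM, every ATGT value of these bins lay above every TAAG value. The number of called bins depends on the experiments: it was 0 without experiment 3, 2 without experiment 2 (1 of them among these 3) and 2147 without experiment 1, and it was 0 without the experiment block.

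In each of these bins the difference lay in 1 window of 100 bp. Without these windows 2 of the 3 bins fell below the filter on low counts, and the bin on chromosome 11 was tested and not called. On chromosome 11, 135 of the ends lay at 1 position, 79337051, which is 2.54 kb before the span of Nf1: 22, 40 and 70 with ATGT and 1, 0 and 2 with TAAG. On chromosome X, 139 ends lay on 7 bp around position 76995435, 137 of them with ATGT, in DNA 80.8 kb from the nearest protein-coding gene. On chromosome 17, 106 ends lay in one 100 bp window, 99 of them at position 87969620, 5.43 kb from Msh6, and 102 of the 106 had ATGT. Outside these windows the bins held 1 and 12, 3 and 7, and 17 and 29 ends with ATGT and TAAG, in the order X, 17 and 11, so what was left had more ends with TAAG, the deeper code.

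The partner ends of these places were scattered. All 139, 106 and 135 ends had different partner positions, spread over 20, 20 and 19 chromosomes, and 97.8%, 97.2% and 97.0% of the partners lay on another chromosome. None of these ends belonged to a PET within 8 kb. Read 1 and read 2 both contributed, with 78 and 61 ends on X, 62 and 44 on chromosome 17, and 65 and 70 on chromosome 11. The genome sequence at these places was not used here, and no cause was tested.

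**Figure D5:**
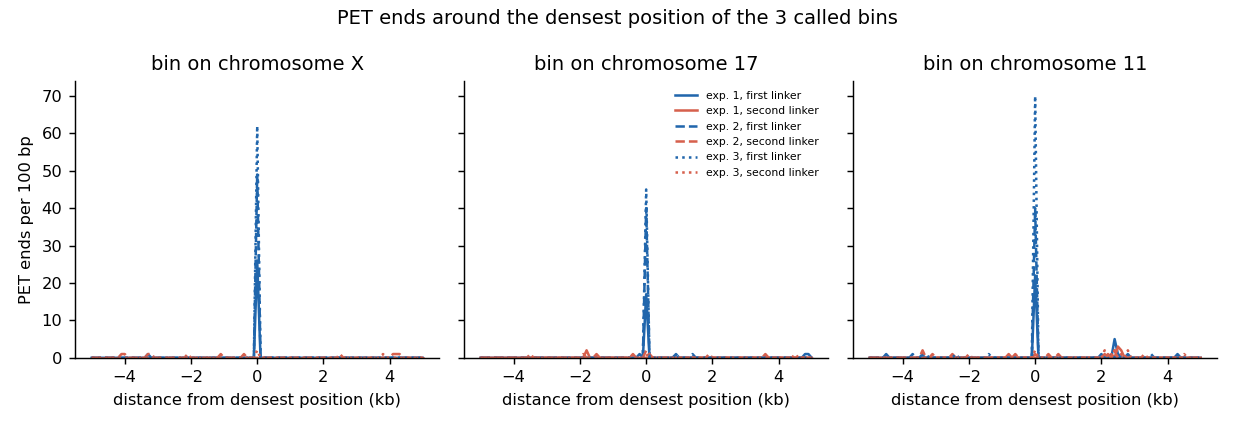
Ends per 100 bp against the distance (kb) from the densest position of the 3 called bins, 1 panel a bin, with the first linker (ATGT) in blue and the second (TAAG) in red and the line style giving the experiment. Each blue spike stands in a single step, up to 70 ends on chromosome 11 in experiment 3, and no red line exceeds 3 ends there.

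Bins with the next smallest p did not pass. Among those lower in TAAG, chr2:91450000-91459999, at Lrp4, held 6, 11 and 18 ends with ATGT and 4, 5 and 5 with TAAG (adjusted p = 0.572 from limma), spread over the bin. Among those higher in TAAG, chr7:115120000-115129999 held 1, 0 and 0 ends with ATGT and 8, 18 and 6 with TAAG (adjusted p = 0.572 from limma), and chr9:28890000-28899999, inside Opcml, held 1, 0 and 0 and 7, 17 and 6 (adjusted p = 0.593 from limma). These rest on few ends a subset.

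Windows of 100 bp, counted after the single places had been seen, gave 4 called windows of 274 tested (1.46%) by limma voom: the 3 places above and 1 on chromosome 7 that was higher in TAAG. The latter came from 1 subset, with 46 ends at position 47810352 in TAAG of experiment 3 and 0 at that position in the other subsets, so its call does not rest on 3 experiments.

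Such places of 1 subset were found elsewhere too. Of 974 positions with at least 10 ends, 76 had at least 90% of them in 1 subset, and at 73 of these all ends were in 1 subset. Both subsets of experiment 1 had many (24 with ATGT, 22 with TAAG), as did those of experiment 3 (17 and 11), while experiment 2 had 0 and 2 in spite of its depth. They were found in gene spans (38 of 76), within 2.5 kb of a gene boundary (23) and in a promoter window (8), and each end had a partner position of its own. The Lclat1 window printed above is 1 of them: 17 ends lay at position 73107929, all in ATGT of experiment 3, with 17 partner positions on 10 chromosomes. That window held 20 ends of ATGT in experiment 3 and 1 of TAAG, while the 2 subsets of experiment 1 held 0. Lclat1, an acyltransferase gene of cardiolipin metabolism, would thus appear to differ between the linkers in 1 experiment through 1 position. These positions were chosen by the ends they hold, so their counts are descriptions.

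On average the linkers of 1 experiment were more alike than subsets of different experiments, and sharing a linker made little difference. Experiment 2 departed from this, and for genes experiment 3 did too. At a common depth of 194272 PETs a subset, the Spearman correlation of end density across 19539 genes averaged 0.338 between the linkers of 1 experiment (3 pairs), 0.253 between experiments for the same linker (6 pairs) and 0.256 where both differed (6 pairs). In 1 Mb bins the averages were 0.845, 0.687 and 0.684. The values with and without a shared linker were thus close, and genes and bins are not independent replicates. Between the linkers of experiments 1, 2 and 3 the values were 0.467, 0.208 and 0.338 for genes and 0.845, 0.749 and 0.942 for 1 Mb bins. The highest values between experiments were 0.355 and 0.822, above those of experiment 2. For genes, pairs of a subset of experiment 1 with a subset of experiment 3 gave 0.342 to 0.355. All of these were above the 0.338 between the linkers of experiment 3. For genes, ATGT of experiment 2 was more alike to each subset of experiments 1 and 3 (0.244 to 0.281) than to TAAG of its own experiment.

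PETs at the same pair of places were rare between linkers. With both ends within 2 bp, 22 PETs were shared between the linkers of experiment 1, 2 in experiment 2 and 1 in experiment 3, and the 12 pairs of subsets from different experiments shared 1 to 6. Only experiment 1 stood above that range, and it was also the experiment with the most PETs within 2 bp of another of its own subset, 1.96% with ATGT and 1.91% with TAAG, against at most 0.0298% elsewhere.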

How the data were processed

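Pol II ChIA-PET of mouse liver was deposited as 1 table with a row for each PET, giving experiment, linker codes and both positions but no library or time point. The positions are the authors' values; Bowtie2 and mm10 are listed in the submitters' processing notes, and no source used here states the filters. The members and gene lists were chosen with earlier results of these data known. PETs with a mitochondrial end were set aside, and ends were counted in 21887 RefSeq protein-coding gene spans (GRCm38.p6) and 10 kb bins. The table holds positions, from which ends were counted here, so limma voom (limma 3.58.1, R 4.3.3) was used with experiment as block, nuclear ends as library size, a mean of at least 5 ends a subset and Benjamini-Hochberg adjustment, in place of a count model. The fit was run on simulated counts, made by dividing observed totals between the codes with counting error only. They held no added spread between experiments, so they do not show how large a change the fit would miss here. Named are the check genes, called features, where fewer than 5 were called the 5 with the smallest p and 1 direction in all 3 experiments, and of each list up to 4 members with the most ends. Differences are TAAG minus ATGT. Subsets of an experiment may share animals, so p-values measure at most the spread between the 3 experiments and not that between animals. In limma, variance was shared across features by empirical Bayes, with a median of 200 degrees of freedom for genes and 67 for bins. The gene fit without experiment 3 (13699 degrees of freedom) and the bin fit without experiment 1 (107243) pooled it wholly over features. The SEs, fitted intervals and p-values of limma thus rest mostly on spread pooled over features. Shares were compared by exact permutation. Scaling, filter, distance, feature size, flanks, PET class, duplicate collapse, block and each experiment were varied. The start site profiles, gene quintiles, 100 bp windows and single positions were added after the data were seen.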

Additional observations from a re-analysis of the deposited data

Results flagged for a closer look

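Mitochondrial PETs lie outside the comparison of nuclear ends, and in 4 subsets they were above the 3 that a count of 0 allows. There were 10 with TAAG in experiment 1, 12 with TAAG in experiment 2, 1046 with ATGT in experiment 3 and 1193 with TAAG in experiment 3. In experiment 3 they made up 0.262% (0.246% to 0.278%) of the ATGT PETs and 0.271% (0.256% to 0.287%) of the TAAG PETs, so the intervals of the linkers overlapped. The ATGT subsets of experiments 1 and 2 held 2 each.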

How the results depend on the processing

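The number of genes called stayed at 0 except with PETs between chromosomes only (1, Stard10) and without experiment 3 (3: Errfi1, Ahsg and Ttc39c, of which 1, Ahsg, is a list member); leaving out an experiment gave 0 to 3 genes and 0 to 1 list members. The 3 called bins became 0 without the experiment block (genes 0), 0 with PETs within 8 kb only, where none of the 3 was tested, 5 with PETs between chromosomes only, 9 with no filter, 5 with 25 kb bins, and 0 with the called 100 bp windows left out, an alternative chosen after seeing the data in which 2 of the 3 fell below the filter. Leaving out an experiment gave 0 (without experiment 3) to 2147 bins (without experiment 1, where 13.3% of bins had an unadjusted p under 0.05; with a mean of at least 20 ends, 3), and without experiment 2 there were 2, of which 1 was among the 3. Labels share replicate numbers only between libraries, which the table does not separate, so the pairing used is the experiment block.

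Nr1d1 turned positive with quantile scaling (0.027), PETs between chromosomes (0.361), PETs counted once (0.15), and without an experiment (-0.28 to 0.161; 0.049 without experiment 1). Per1 did with limma trend (0.103 and 0.078 at pseudocounts of 1 and 5 CPM) and without an experiment (-0.728 to 0.366). Npas2 did with PETs between chromosomes (0.083), PETs counted once (0.032) and without an experiment (-0.182 to 0.06). Boundary fold is the density of ends near gene boundaries over that in windows shifted away from them. Its mean difference was -0.2396 within 1 kb against -0.1172 within 2.5 kb, and -0.1711 to -0.05731 with an experiment left out. The causes were not tested. Leaving out an experiment gave -4.999 to -1.854 points for short PETs and -1.724 to -0.7107 for ends near boundaries. Quantile scaling moved the median of all bins from -0.09 to 0.02 (log2) and ended no call. Depth limits the check genes to the intervals given.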
